A study of Mus musculus with 10 samples.

Results

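Collagens are the triple-helical proteins that give tissue its fibrils, sheets and filaments. The 40 collagen genes described here are those whose gene name on the array is Col, a number, the letter a and a number, out of 27671 genes on the array. They had 78 probes, and each gene was represented by the probe with the highest mean Cy5 signal. Livers of 10 mice were measured on 2-colour Agilent arrays, on which each liver's RNA (Cy5) was hybridised against a common Stratagene universal mouse reference RNA (Cy3). Each value is a log2 ratio of liver over reference. The 5 wild-type (WT, labelled wt/wt) livers came from 3 males (WT 1, WT 2 and WT 5) and 2 females (WT 3 and WT 4). The 5 knockout (KO, labelled GCGR ko/ko) livers lack Gcgr, the receptor by which hepatocytes answer the fasting hormone glucagon, and came from 2 males (KO 1 and KO 5) and 3 females (KO 2 to KO 4). The labels give no age, strain background, diet or deleted exon. The question was which collagen transcripts differ in liver when this receptor is missing, and the 2 sexes were compared beside it.

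In healthy liver, collagens I and III form fibrils around portal tracts and central veins, collagen V joins those fibrils, collagen VI forms beaded filaments, and collagen IV forms the sheets of basement membranes. Stellate cells and portal fibroblasts make most fibrillar collagen, endothelial cells contribute collagen IV, and hepatocytes are known producers of collagen XVIII, whose C-terminal fragment is endostatin. Stellate cells that turn into myofibroblasts raise collagens I and III, which is the usual course of liver fibrosis.

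The livers lay on 4 slides. Slide 1 held WT 1, WT 2, KO 1 and KO 2, slide 2 held KO 3 and KO 4, slide 3 held WT 3, WT 4 and KO 5, and slide 4 held WT 5. Slide 3 therefore sets a male KO liver against female WT livers, slide 1 sets a male and a female KO liver against male WT livers, and values within a slide also hold sex. The females of the 2 genotypes share no slide. Slides 1 and 2 were brighter (median net Cy5 signal of 111.6 to 133.6 per array) than slides 3 and 4 (58.74 to 78.92). Gcgr itself matched the label in all 10 livers, with log2 ratios of 7.74 to 8.14 in WT and 0.28 to 0.36 in KO livers. The 7 hepatocyte markers tested had a mean log2 ratio of 6.885 to 7.424 over the reference in every liver. In whole-liver RNA, fewer cells of a type and less RNA per cell cannot be told apart.

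The 3 collagens that the results below turn on are shown first: Col18a1, which differed by genotype, and Col5a3 and Col27a1, which differed by sex. The sequences are the 250 bases before each start in RefSeq's mouse promoter table (build GRCm38.p6), 5′ to 3′ on the gene's strand. Capitals mark every match, on both strands, of 5 motifs: TTCNNNGAA (a STAT5 site, the factor of pulsatile growth hormone signalling), TGACG (the core of the cAMP response element), CCAAT (the CCAAT box), GGGCGG (the GC box) and TATAAA (the TATA box).
Col18a1 start 1, chr10:77166531-77166780, minus strand: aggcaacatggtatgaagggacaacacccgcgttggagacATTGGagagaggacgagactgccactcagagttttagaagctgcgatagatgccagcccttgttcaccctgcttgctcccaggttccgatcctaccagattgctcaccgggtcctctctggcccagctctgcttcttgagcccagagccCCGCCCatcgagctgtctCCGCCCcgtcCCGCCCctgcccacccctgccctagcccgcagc
Col18a1 start 2, chr10:77113706-77113955, minus strand: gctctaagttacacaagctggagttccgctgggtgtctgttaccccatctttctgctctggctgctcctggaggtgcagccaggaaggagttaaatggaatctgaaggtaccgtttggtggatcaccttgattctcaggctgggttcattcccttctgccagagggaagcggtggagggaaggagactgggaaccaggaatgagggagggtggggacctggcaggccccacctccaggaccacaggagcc
Col5a3, chr9:20815068-20815317, minus strand: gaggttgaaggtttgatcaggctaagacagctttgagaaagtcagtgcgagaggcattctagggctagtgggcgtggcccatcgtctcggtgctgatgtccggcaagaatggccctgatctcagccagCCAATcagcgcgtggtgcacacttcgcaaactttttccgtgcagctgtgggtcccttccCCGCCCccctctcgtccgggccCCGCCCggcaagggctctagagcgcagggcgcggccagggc
Col27a1, chr4:63215162-63215411, plus strand: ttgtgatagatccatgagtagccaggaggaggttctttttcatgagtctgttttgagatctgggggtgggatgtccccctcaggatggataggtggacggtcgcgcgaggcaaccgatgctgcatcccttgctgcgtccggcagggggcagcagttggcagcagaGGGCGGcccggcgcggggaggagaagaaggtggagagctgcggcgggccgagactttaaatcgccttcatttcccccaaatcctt

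The table lists 2 starts for Col18a1 and 1 each for Col5a3 and Col27a1. The GC box matched 3 times before the first Col18a1 start, 2 times before Col5a3 and 1 time before Col27a1. The CCAAT box matched 1 time before the first Col18a1 start and 1 time before Col5a3. No motif matched before the second Col18a1 start, and neither the STAT5 site, the cAMP element nor the TATA box matched in these 4 windows. Among all 32851 windows of 250 bases in the table, 32.7% held the GC box, 33.8% the CCAAT box, 7.02% the STAT5 site, 17.8% the cAMP element and 12.4% the TATA box. No matches overlapped. A match is only a run of letters, and the array measured no binding.

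Of the 40 collagen genes, 30 were well above background in the liver channel on at least 4 of the 10 livers and were tested, 25 of them well above background on all 10. The 10 others were dim. Col10a1 and Col12a1 were well above background in no liver. Col4a3 (1 WT), Col28a1 (1 WT), Col8a2 (1 KO), Col24a1 (1 KO), Col19a1 (1 WT and 1 KO), Col9a1 (2 KO), Col4a5 (1 WT and 2 KO) and Col23a1 (1 WT and 2 KO) were so in 1 to 3 livers. The gene-name rule also missed probes filed under older names. Of these only 1110001D15Rik, now Col6a4, was measured in all 10 livers, with a KO minus WT difference of -0.14 (SE 0.11).

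Few collagens differed by genotype. Of the 30 tested, 1 rose (Col18a1) and 1 fell (Col4a6) in KO livers at a limma p-value under 0.05 once adjusted for the 18921 genes that could be tested. That is 6.667% of the collagens tested, against 6% of all genes tested (2.9% higher and 3.1% lower). The share is near the background. The median difference of the 30 was 0.0403, against -0.0027 for all genes tested. The differences ran from -0.27 to 0.50, with 20 above 0 and 10 below, and 22 lay within 0.2 of 0. The 95% interval of each of the 30 lay inside a 2-fold change in either direction, and 7 of the 30 had an unadjusted limma p under 0.05, where 20.9% of all genes did.

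**Figure D1:**
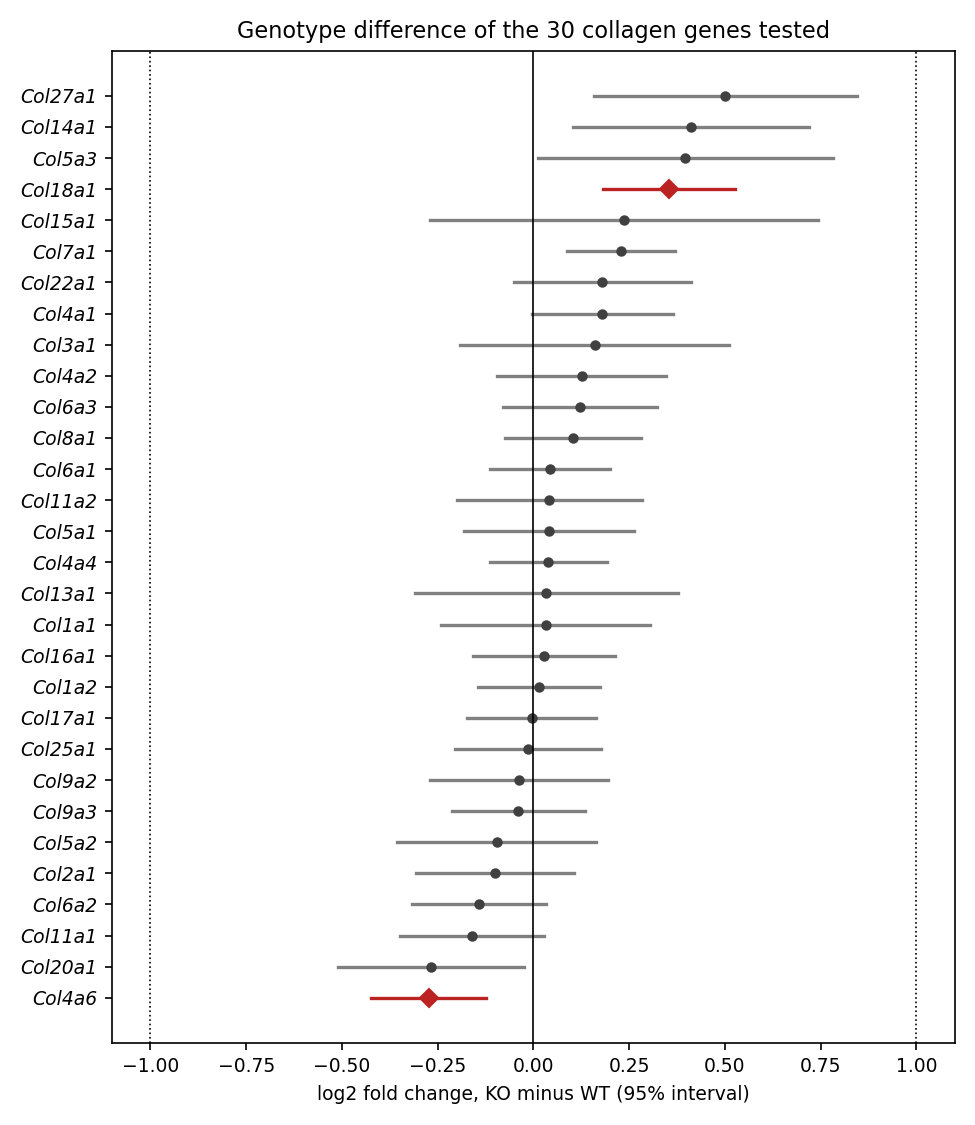
Log2 fold change (KO minus WT, from the model with genotype and sex) of each collagen gene tested, with its unadjusted 95% interval; red diamonds passed the threshold and dotted lines mark 2-fold. Col18a1 (0.36) and Col4a6 (-0.27) passed, and all 30 intervals stay between the dotted lines.

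Col18a1, the core protein of a basement membrane heparan sulfate proteoglycan and the source of endostatin, was the collagen that rose. Col18a1 read 4.04, 3.85, 3.75, 3.97 and 3.80 in WT 1 to WT 5, and 4.20, 4.30, 4.34, 4.33 and 4.09 in KO 1 to KO 5 (log2 ratios, as for the genes that follow). Every KO liver lay above every WT liver, the only collagen of which this was so (3.333% of those tested, where 6.07% of all genes tested had genotypes that did not overlap). The means were 3.88 ± 0.12 in WT and 4.25 ± 0.10 in KO livers (SD, n = 5 each), a difference of 0.36 (SE 0.08, limma adjusted p = 0.0231), or 1.28-fold with a 95% interval of 1.14 to 1.44. A second Col18a1 probe gave 0.25 (SE 0.08, limma adjusted p = 0.108 over all probes) and did not pass. The files do not tie either probe to 1 of the 2 starts shown above.

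The brightest Col18a1 probe lies on chromosome 10, 76707663 to 76707722, by the scanner files' own annotation, which uses build mm7. A slide block gave 0.28 (limma adjusted p = 0.0881), and the livers of slide 1 alone gave 0.30 and those of slide 3 alone 0.23. The call was also lost without any 1 of WT 3, KO 1, KO 2, KO 3 or KO 4 (limma adjusted p = 0.0501 to 0.0777), with values of 0.29 to 0.36. Of 10 markers of sinusoidal endothelium 3 rose (30%, against 2.9% of all genes): Lyve1 (1.47, SE 0.25), Oit3 (0.34, SE 0.09) and Pecam1 (0.26, SE 0.07). The other 7 did not pass, and all 10 values lay above 0, with a median of 0.26. The list's mean log2 ratio was 2.805 to 3.387 in WT and 3.455 to 3.708 in KO livers, with no overlap. That mean includes Lyve1, the list's largest difference, and was not taken without it. By gene, only Lyve1 and Pecam1 had genotypes that did not overlap (2 of 10, where 6.07% of all genes tested did not). The reference channel was well above background on 6 arrays for Lyve1, 4 for Cdh5 and 0 for Bmp2. Of the 7 hepatocyte markers none rose and 1 fell (Tat, a target of glucagon signalling), and the list's mean overlapped between genotypes. Other cell markers had medians of like size with no call: 0.20 for Kupffer cells, with 8 of 9 above 0, and 0.23 for bile duct cells, with 5 of 6 above 0. The part of these cell types in the Col18a1 difference was not tested.

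Col15a1, the other member of the multiplexin class, was high in a different set of livers. Its reference channel was well above background on 0 of the 10 arrays, so its ratios are taken against a reference at background and are less firm than the others. Col15a1 read 1.21, 1.09, 0.51, 0.49 and 0.72 in WT 1 to WT 5, and 0.73, 0.86, 1.71, 1.43 and 0.57 in KO 1 to KO 5. The female KO livers 3 and 4, both on slide 2, were highest, the groups overlapped, and the difference of 0.24 (SE 0.23, limma adjusted p = 0.63) did not pass.

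Col4a6, a chain of smooth muscle and epithelial basement membranes, was the collagen that fell. Col4a6 read 1.54, 1.51, 1.49, 1.24 and 1.54 in WT 1 to WT 5, and 1.22, 0.99, 1.12, 1.12 and 1.32 in KO 1 to KO 5. WT 4 lay below KO 5, so the groups overlapped, and the other WT livers lay above every KO liver. The means were 1.46 ± 0.13 in WT and 1.16 ± 0.12 in KO livers (SD, n = 5 each), a difference of -0.27 (SE 0.07, limma adjusted p = 0.0395), or 1.21-fold lower. The probe lies on chromosome X, 135831206 to 135831265 (mm7).

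The Col4a6 call held in 5 of 24 alternatives with a test, and that of Col18a1 in 14 of 24. The second, dimmer Col4a6 probe, well above background in 7 livers, gave -0.10 (SE 0.10). The 2 probes also differed in level, with mean log2 ratios of 1.31 at the brightest and -2.80 at the second. A slide block gave -0.29 (limma adjusted p = 0.0673), and the livers of slide 1 alone gave -0.42 and those of slide 3 alone -0.04. Leaving out any 1 liver other than WT 4 also ended the call, with limma adjusted p of 0.0524 to 0.128.

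The collagen IV chains of ordinary basement membranes did not pass. Col4a1 and Col4a2, whose products join in the same trimer and whose genes lie side by side, had differences of 0.18 (SE 0.08, limma adjusted p = 0.251) and 0.13 (SE 0.10, limma adjusted p = 0.535). Col4a1 read -1.07, -1.03, -1.46, -1.08 and -0.92 in WT 1 to WT 5, and -0.97, -1.03, -1.01, -0.95 and -0.87 in KO 1 to KO 5. Col4a2 read -1.19, -1.04, -1.75, -1.20 and -0.99 in WT 1 to WT 5, and -1.04, -1.38, -1.27, -1.21 and -0.98 in KO 1 to KO 5. WT 3, a female, was the lowest liver for both chains and stood apart from the others. Col4a4 is a chain best known from the kidney's filter. Col4a4 read -0.95, -0.91, -0.87, -0.95 and -0.89 in WT 1 to WT 5, and -0.94, -1.02, -0.90, -0.79 and -0.75 in KO 1 to KO 5. The genotypes overlapped, with a difference of 0.04 (SE 0.07).

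The chains of the main liver fibrils showed no difference that passed. Collagen I is the chief collagen of scar, built from the products of Col1a1 and Col1a2. Col1a1 read -5.67, -5.86, -5.99, -5.30 and -5.54 in WT 1 to WT 5, and -5.48, -5.79, -5.77, -5.72 and -5.54 in KO 1 to KO 5. WT 3 and WT 4, both female and on the same slide, were the lowest and the highest of all 10 livers, and the KO livers lay between them. The difference was 0.03 (SE 0.12, limma adjusted p = 0.921), with a 95% interval of 0.846-fold to 1.24-fold. Dimmer Col1a1 probes gave -0.13 (SE 0.11, well above background in 10 livers) and -0.04 (SE 0.09, in 6 livers), and did not pass.

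Col1a2 spanned a narrower range. Col1a2 read -4.73, -4.53, -4.72, -4.58 and -4.54 in WT 1 to WT 5, and -4.57, -4.59, -4.53, -4.75 and -4.63 in KO 1 to KO 5. The genotypes overlapped over nearly their whole range, with a difference of 0.02 (SE 0.07, limma adjusted p = 0.936) and an interval of 0.905-fold to 1.13-fold.

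Collagen III, a homotrimer that mixes into collagen I fibrils, also overlapped between genotypes. Col3a1 read -3.62, -3.74, -3.74, -3.15 and -3.20 in WT 1 to WT 5, and -2.87, -3.48, -3.54, -3.40 and -3.48 in KO 1 to KO 5. KO 1 was the highest liver, above the other 4 KO livers, which lay from -3.54 to -3.40. The difference was 0.16 (SE 0.16, limma adjusted p = 0.634), with an interval of 0.876-fold to 1.42-fold. Over these 3 fibril genes the intervals, each from the brightest probe, reach 1.42-fold at most.

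**Figure D2:**
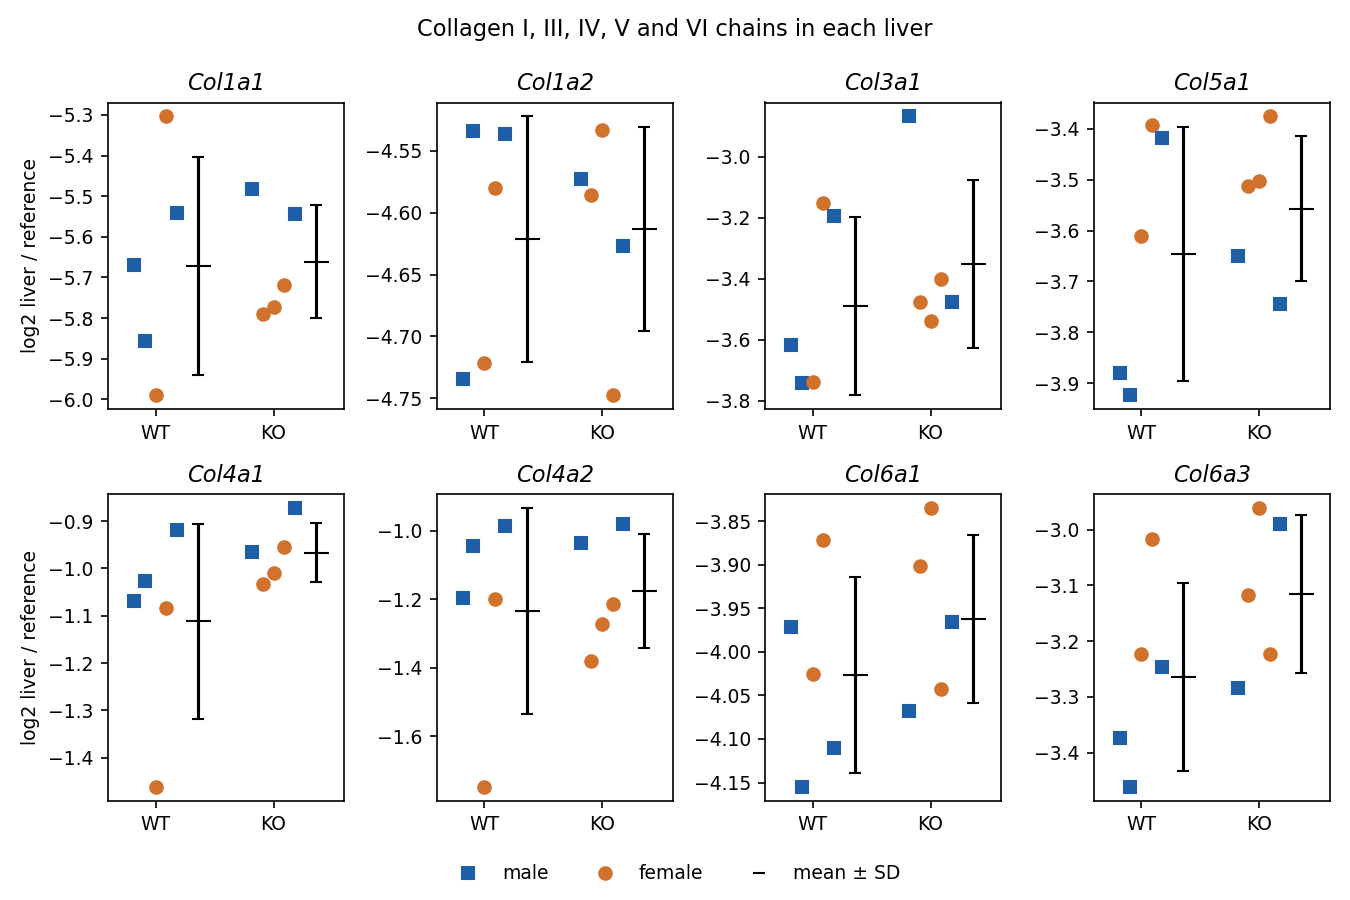
Log2 liver over reference ratio of 8 chains of collagens I, III, IV, V and VI in each liver, by genotype (squares male, circles female; black marks give mean ± SD, n = 5). WT and KO livers overlap in every panel; WT 3 is the lowest point of Col1a1 (-5.99), Col4a1 (-1.46) and Col4a2 (-1.75), and KO 1 the highest of Col3a1 (-2.87).

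Col5a1 and Col5a2, the chains of collagen V that start fibril assembly, did not pass either. Col5a1 read -3.88, -3.92, -3.61, -3.39 and -3.42 in WT 1 to WT 5, and -3.65, -3.51, -3.50, -3.38 and -3.74 in KO 1 to KO 5. Col5a2 read -3.83, -3.79, -3.71, -3.35 and -3.34 in WT 1 to WT 5, and -3.66, -3.66, -3.89, -3.78 and -3.54 in KO 1 to KO 5. Differences were 0.04 (SE 0.10) and -0.10 (SE 0.12), and the genotypes overlapped for both.

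The beaded filament collagen VI gave similarly small values. Col6a1 read -3.97, -4.15, -4.03, -3.87 and -4.11 in WT 1 to WT 5, and -4.07, -3.90, -3.83, -4.04 and -3.97 in KO 1 to KO 5. Col6a2 read -1.68, -1.53, -1.67, -1.58 and -1.36 in WT 1 to WT 5, and -1.69, -1.78, -1.68, -1.61 and -1.80 in KO 1 to KO 5. Col6a3 read -3.37, -3.46, -3.22, -3.02 and -3.25 in WT 1 to WT 5, and -3.28, -3.12, -2.96, -3.22 and -2.99 in KO 1 to KO 5. The genotypes overlapped for all 3 chains, with differences of 0.04 (SE 0.07), -0.14 (SE 0.08) and 0.12 (SE 0.09).

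Col14a1, which coats collagen fibrils and is a known marker of liver fibroblasts, was nearly constant among KO livers and spread among WT livers. Col14a1 read 3.98, 4.36, 5.10, 4.80 and 4.41 in WT 1 to WT 5, and 5.01, 4.98, 4.97, 5.11 and 5.00 in KO 1 to KO 5. The WT males were the 3 lowest livers, while WT 3 lay within the KO range. The difference was 0.41 (SE 0.14, limma adjusted p = 0.114), with 0.55 (SE 0.14, limma adjusted p = 0.0548) under a slide block, 0.83 on slide 1 alone and 0.05 on slide 3 alone. It passed in 1 of 24 alternatives with a test, slide as a random block.

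The largest collagen differences were by sex. Of the 30 tested, 3 differed between the sexes (10%, against 11.6% of all genes tested), and all 3 were lower in females (10%, against 6.6%). Every female liver lay beyond every male liver in 3 collagens (10%, against 9.29%), namely Col5a3, Col27a1 and Col4a2. With 3 genes each, these shares are read as near the background.

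**Figure D3:**
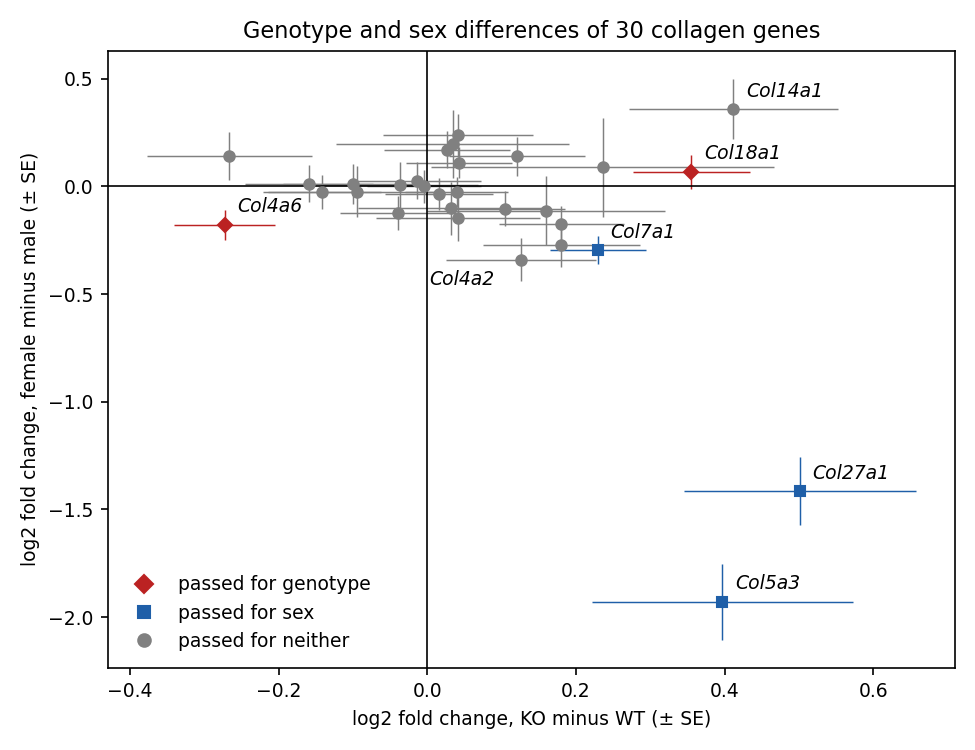
Female minus male log2 fold change against KO minus WT log2 fold change of the 30 collagen genes (± SE, from the same model). Col5a3 (-1.93) and Col27a1 (-1.41) lie far below the others on the sex axis, while on the genotype axis all 30 lie between -0.27 and 0.50.

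Col5a3, the third chain of collagen V, had the largest sex difference of the collagens. Col5a3 read 1.72, 1.52, -0.90, -0.58 and 1.84 in WT 1 to WT 5, and 1.65, 0.05, 0.29, 0.15 and 1.52 in KO 1 to KO 5. The 5 males lay between 1.52 and 1.84 whatever their genotype, the 3 KO females between 0.05 and 0.29, and the 2 WT females at -0.90 and -0.58. Males had a mean of 1.65 ± 0.14 and females of -0.20 ± 0.52 (SD, n = 5 each). Females were lower by 1.93 (female minus male -1.93, SE 0.18, limma adjusted p = 4.57e-05), or 3.81-fold, and the value was -1.87 (limma adjusted p = 4e-05) under a slide block. The probe lies on chromosome 9, 20639940 to 20639999 (mm7). A second, dimmer probe, well above background in 8 livers, gave -0.13.

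Col27a1, a fibrillar collagen of cartilage, showed the same order of groups. Col27a1 read 1.61, 2.15, 0.24, 0.20 and 2.10 in WT 1 to WT 5, and 2.17, 0.72, 1.24, 1.17 and 2.11 in KO 1 to KO 5. Males lay between 1.61 and 2.17, KO females between 0.72 and 1.24, and WT females at 0.24 and 0.20. In 1 WT liver the probe was not well above background. Females were lower (-1.41, SE 0.16, limma adjusted p = 1.62e-04), or 2.67-fold, and -1.51 (limma adjusted p = 1.25e-04) under a slide block. A second probe gave -0.84 (limma adjusted p = 0.00025 over all probes) and the third, the dimmest, gave -0.08. The brightest probe lies on chromosome 4, 62768147 to 62768206 (mm7).

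Col7a1, the collagen of anchoring fibrils, differed by sex to a much smaller extent. Col7a1 read -2.36, -2.30, -2.59, -2.63 and -2.32 in WT 1 to WT 5, and -2.12, -2.30, -2.37, -2.52 and -2.04 in KO 1 to KO 5. The WT females were lowest and the KO males highest, and the sexes overlapped, with KO 2 above WT 1, WT 2 and WT 5. Females were lower (-0.30, SE 0.06, limma adjusted p = 0.012), with -0.25 (limma adjusted p = 0.0851) with slide as a block. Col4a2 had a sex difference of -0.34 (SE 0.10, limma adjusted p = 0.0513).

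**Figure D4:**
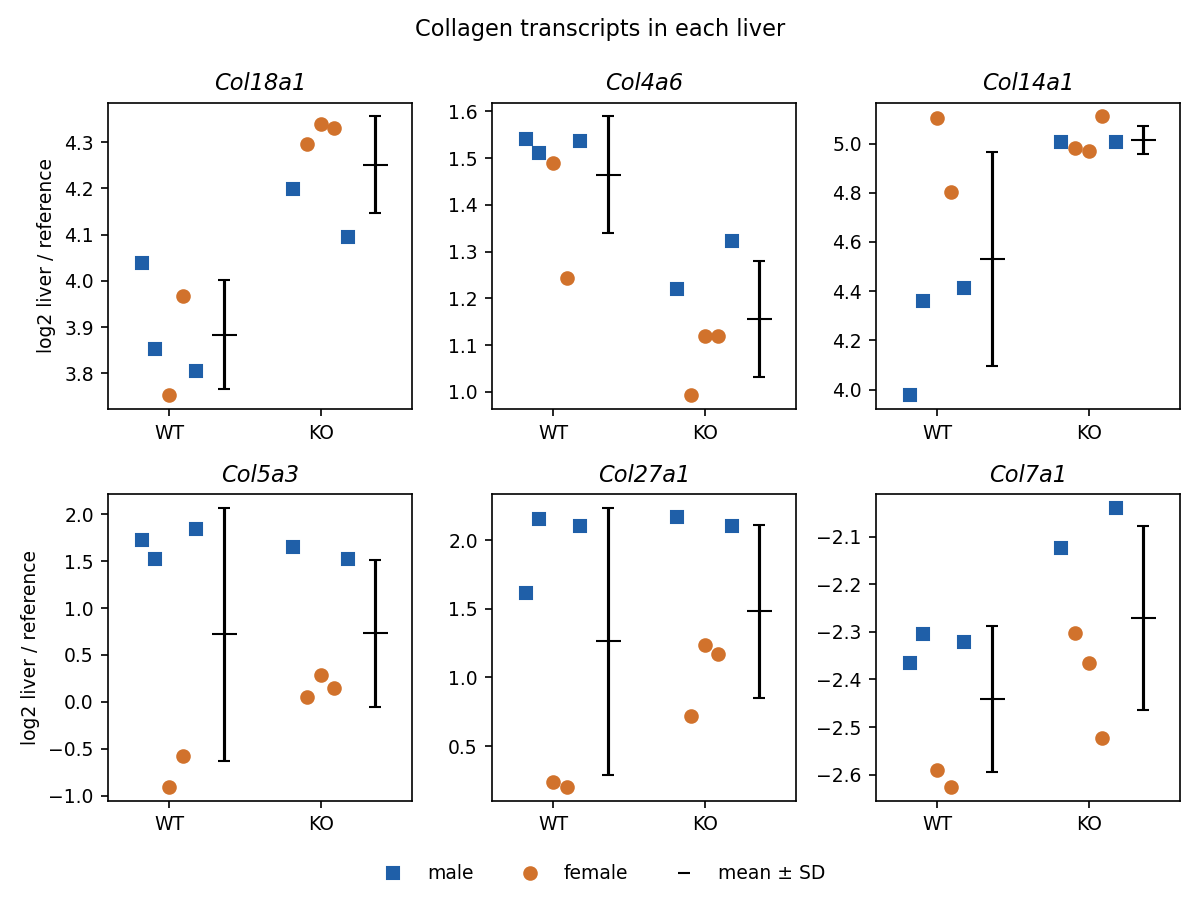
Log2 liver over reference ratio in each liver for the collagens that passed for genotype (Col18a1, Col4a6) or sex (Col5a3, Col27a1, Col7a1) and for Col14a1, by genotype (squares male, circles female; black marks give mean ± SD, n = 5). Col18a1 separates the genotypes, and Col5a3 and Col27a1 separate the sexes, with KO females above WT females in both.

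Whether the genotype difference itself depended on sex was tested with an interaction term, and 0 of the 30 collagens passed by limma, against 0.0317% of all genes (6 of 18921). At an unadjusted p under 0.05 there were 6 of the 30, where 12.5% of all genes passed. For Col5a3 the KO minus WT difference was 0.91 (SE 0.13) in females and -0.11 (SE 0.13) in males, and the difference between them was 1.02 (SE 0.19, limma adjusted p = 0.112). For Col27a1 the values were 0.82 (SE 0.18) in females and 0.18 (SE 0.18) in males, with an interaction of 0.64 (SE 0.26, limma adjusted p = 0.357). Col14a1 ran the other way, with 0.07 (SE 0.14) in females and 0.76 (SE 0.14) in males (interaction -0.69, SE 0.20, limma adjusted p = 0.241). Col15a1, with its reference at background, had 0.83 (SE 0.22) in females and -0.36 (SE 0.22) in males (interaction 1.19, SE 0.31, limma adjusted p = 0.215).

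Within each sex, 3 of the 30 collagens passed as higher in KO females (Col5a3, Col27a1 and Col18a1, against 2.29% of all genes) and 1 as higher in KO males (Col14a1, against 1.22%), and none as lower in either. The female values rest on 2 WT livers from slide 3 and 3 KO livers from slides 1 and 2, so genotype and slide cannot be told apart there. Slide 1 holds 1 KO female and no WT female. The male values rest on slides 1, 3 and 4, and on slide 1, which holds both genotypes in males, Col14a1 was 5.01 in KO 1 against 3.98 and 4.36 in WT 1 and WT 2. The only male KO livers are KO 1 and KO 5. For Col14a1 they read 5.01 and 5.00, within the range of the female KO livers, though they stood apart in the adipocyte marker Cfd (given with the cell markers). Without both of them, Col14a1 differed by 0.07 (limma adjusted p = 0.85), which only repeats the female value above.

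The other 12 tested collagens are Col2a1, Col8a1, Col9a2, Col9a3, Col11a1, Col11a2, Col13a1, Col16a1, Col17a1, Col20a1, Col22a1 and Col25a1, among them cartilage collagens and transmembrane collagens. Their KO minus WT differences ran from -0.27 (Col20a1) to 0.18 (Col22a1) and their female minus male differences from -0.27 (Col22a1) to 0.20 (Col13a1). None passed for either, with lowest adjusted p of 0.194 and 0.133. By class, medians were 0.04 for the 10 fibrillar collagens, 0.08 for the 4 basement membrane chains, 0.04 for the 3 beaded filament chains, -0.01 for the 6 fibril-associated collagens and 0.30 for the 2 multiplexins, of which Col15a1 had its reference at background.

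Some collagens varied together over the 10 livers, with genotype, sex and slide left in the values. Over 3 relations computed, Col1a1 and Col3a1 had r = 0.802 (permutation p = 0.00517, adjusted 0.00776) and rho = 0.867 (permutation p = 0.00219, adjusted 0.00657), and r was 0.786 (permutation p = 0.0121) without WT 3 and WT 4. Col1a1 and Col1a2 had r = 0.274 (permutation p = 0.44, adjusted 0.44) and rho = 0.0667 (permutation p = 0.865, adjusted 0.865), and r was -0.0472 without the same livers. Col4a1 and Col4a2 had r = 0.895 (permutation p = 0.00381, adjusted 0.00776) and rho = 0.685 (permutation p = 0.0347, adjusted 0.052). That relation was weaker with WT 3 and KO 5 left out together, where r was 0.491 (permutation p = 0.217). Neither liver was left out alone. No slide held more than 4 livers, too few for a value within slides.

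Genes that make, cut or bind collagen, other matrix and basement membrane genes, and genes of fibrogenic signalling were read from 6 lists. Of 119 such genes tested, 4 rose and 2 fell in KO livers (5.04%, against 6% of all genes). Genotypes did not overlap in 10 of the 119 (8.4%, where 6.07% of all genes tested did not). Reck, Ctsl, Ddr1, Lama4 and Spon2, described below, are among these 10. None of the 28 genes of collagen synthesis and cross-linking passed, with the hydroxylases, lysyl oxidases and the chaperone Serpinh1 among them. The procollagen protease enhancer Pcolce2 differed by 0.27 (SE 0.10, limma adjusted p = 0.16). The galactosyltransferase gene Colgalt2 was well above background in 4 WT livers and 1 KO liver, and its reference channel on 0 arrays. It entered the test through the WT livers, so its value of -0.38 (SE 0.12) gives no exact size. The list's median was 0.01.

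Among 17 genes of collagen breakdown and its inhibitors 1 rose and 1 fell, with a median of -0.04. Reck, a membrane-anchored inhibitor of matrix metalloproteinases, rose. Reck read -0.95, -0.81, -0.23, -0.17 and -0.45 in WT 1 to WT 5, and -0.05, 0.15, 0.44, 0.66 and -0.06 in KO 1 to KO 5, and every KO liver lay above every WT liver. The difference was 0.65 (SE 0.11, limma adjusted p = 0.00743) or 1.57-fold, with 0.93 on slide 1 alone and 0.13 on slide 3 alone. Ctsl, the lysosomal cathepsin L, fell. Ctsl read -0.05, -0.17, 0.12, -0.06 and -0.14 in WT 1 to WT 5, and -0.52, -0.41, -0.40, -0.26 and -0.75 in KO 1 to KO 5, again with no overlap, and the difference was -0.45 (SE 0.08, limma adjusted p = 0.0061) or 1.37-fold, with -0.36 on slide 1 alone and -0.78 on slide 3 alone.

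Of 7 collagen receptors 1 rose, the receptor kinase Ddr1 that fibrillar collagen activates. Ddr1 read -3.94, -4.11, -3.94, -3.65 and -3.69 in WT 1 to WT 5, and -3.54, -3.09, -2.98, -2.94 and -3.31 in KO 1 to KO 5. Every KO liver lay above every WT liver, and the difference was 0.64 (SE 0.11, limma adjusted p = 0.0053) or 1.56-fold, with 0.71 on slide 1 alone and 0.49 on slide 3 alone. The list's median was 0.00. Of 17 basement membrane partners none passed, with a median of 0.05. The laminin chains Lama4 (0.38, SE 0.10, limma adjusted p = 0.0528) and Lamb3 (-0.35, SE 0.12, limma adjusted p = 0.108) had the largest differences. Lama4, the laminin chain of endothelial basement membranes, was higher in every KO than in every WT liver. Its second probe, well above background in all 10 livers, gave 0.44 (limma adjusted p = 0.0277 over all probes), and the third 0.22 (limma adjusted p = 0.132). Lama4 passed in 4 of 24 alternatives with a test.

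Of 27 other matrix proteins 1 rose, Spon2, a secreted matrix protein of innate immune recognition. Spon2 read -1.14, -0.74, -1.79, -1.41 and -0.81 in WT 1 to WT 5, and 0.02, 0.12, -0.08, 0.55 and -0.65 in KO 1 to KO 5. KO 5, the lowest KO liver, still lay above the highest WT liver. The difference was 1.19 (SE 0.24, limma adjusted p = 0.0149) or 2.28-fold, with 1.01 on slide 1 alone and 0.95 on slide 3 alone, and 1.03 (SE 0.23) at a second probe. It did not pass without WT 3 (0.98, limma adjusted p = 0.053). The list's median was 0.05.

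Of 23 genes of TGF-beta and fibrogenic signalling 1 rose and 1 fell, with a median of 0.07. Smad7, the inhibitor that TGF-beta induces against its own signal, rose. Smad7 read -0.57, -0.03, 0.18, 0.45 and -0.17 in WT 1 to WT 5, and 1.03, 0.86, 1.72, 1.27 and 0.11 in KO 1 to KO 5. The groups overlapped by KO 5, and the difference was 0.90 (SE 0.20, limma adjusted p = 0.0231) or 1.87-fold. A slide block gave 0.73 (limma adjusted p = 0.102), slide 1 alone 1.25 and slide 3 alone -0.20. The call was also lost without any 1 of WT 3, KO 1 or KO 4 (limma adjusted p = 0.0537 to 0.0858).

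Pdgfa, a growth factor for stellate cells, fell. Pdgfa read -1.81, -1.75, -2.29, -2.28 and -1.58 in WT 1 to WT 5, and -2.17, -2.91, -2.69, -2.78 and -2.14 in KO 1 to KO 5. The groups overlapped across the sexes, and females were lower within each genotype, and the difference was -0.47 (SE 0.07, limma adjusted p = 0.00318) or 1.39-fold. A slide block gave -0.46, slide 1 alone -0.76, and 0.15 came from slide 3 alone, the slide that sets a male KO against female WT livers. A second probe gave -0.36 (SE 0.07). Over 24 alternatives with a test, Reck, Ddr1, Spon2 and Pdgfa each passed in 22, Ctsl in 20 and Smad7 in 15.

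**Figure D5:**
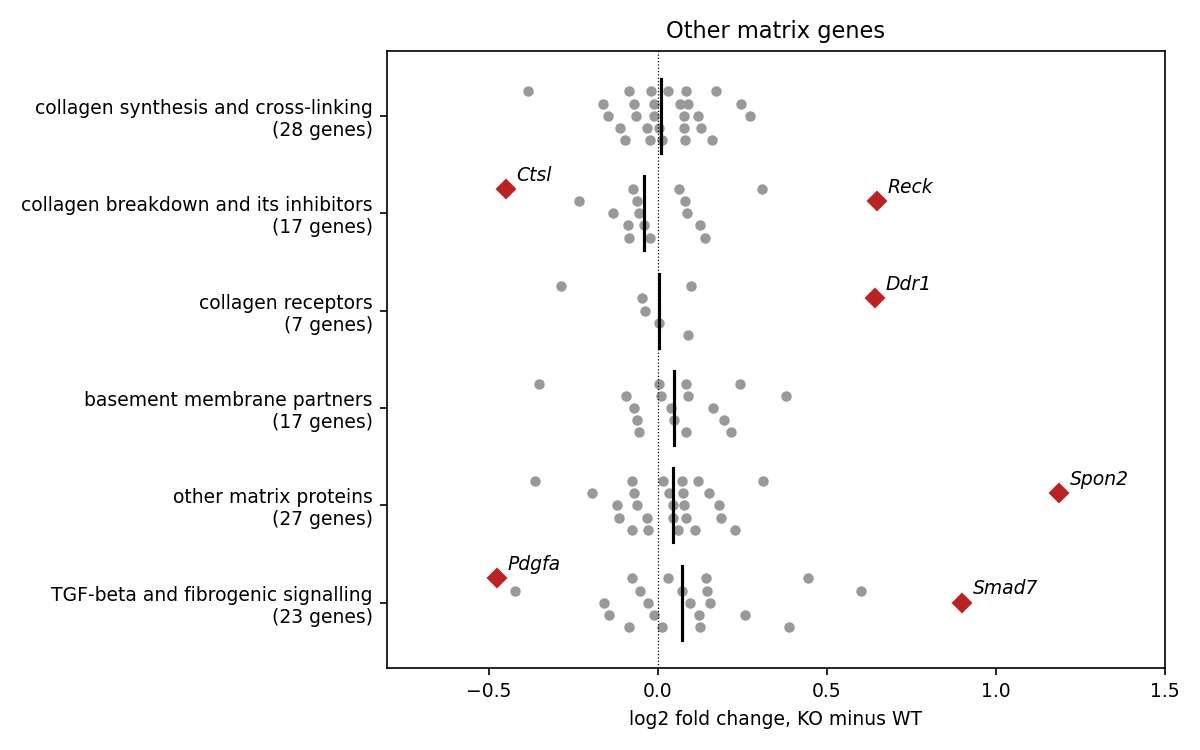
Log2 fold change (KO minus WT) of each tested gene in 6 lists of matrix genes; black bars are list medians and red diamonds the genes that passed. Spon2 (1.19), Smad7 (0.90), Reck (0.65) and Ddr1 (0.64) rose, Pdgfa (-0.47) and Ctsl (-0.45) fell, and the list medians lie between -0.04 and 0.07.

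By sex, 15 of the 119 matrix genes passed (12.6%, against 11.6% of all genes), 11 higher and 4 lower in females. Fibronectin, Fn1, was higher in females by 0.58 (SE 0.07, limma adjusted p = 3.94e-04) and by 0.36 and 0.45 at its other probes. Also higher in females were the small proteoglycan Lum (0.73, SE 0.13), the matrix protein Ecm1 (0.61, SE 0.08), the membrane collagenase Mmp14 (0.73, SE 0.14) and the PDGF receptors Pdgfra (0.50, SE 0.14) and Pdgfrb (0.42, SE 0.11). Lower in females were Ltbp2 (-1.89, SE 0.21, but -0.08 at a second probe), Pdgfa (-0.60, SE 0.07), the prolyl isomerase Ppib (-0.52, SE 0.09) and Mmp15 (-0.43, SE 0.12).

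Markers of collagen-making and other liver cells were read beside these values. None of 13 stellate cell markers passed for genotype, with a median of -0.08 and a list mean of 1.183 to 1.95 in WT and 1.398 to 1.696 in KO livers. By sex, 4 of the 13 passed, all higher in females, where 5.02% of all genes were called higher in females and 6.6% lower. So were 3 of 10 markers of sinusoidal endothelium, while 1 of 10 portal fibroblast markers (Acta2) and 1 of 3 adipocyte markers (Cfd) were lower in females. For Cfd only the male KO livers were high, not the WT males (values below). No marker of the other lists passed for sex. Of 10 markers of portal fibroblasts and myofibroblasts 1 rose (10%, against 2.9% of all genes), Entpd2 (0.44, SE 0.08). The list's median was 0.09, with 6 of 10 above 0. Cd34 (0.36, SE 0.10) and Tagln (0.26, SE 0.09) did not pass. Acta2, the smooth muscle actin of myofibroblasts, differed by -0.05 (SE 0.06). None of 9 Kupffer cell markers and none of 6 bile duct markers passed. None of 3 adipocyte and 4 pancreatic acinar markers passed either. The adipocyte marker Cfd, which encodes adipsin, nevertheless set both male KO livers apart. Cfd read 7.22 in KO 1 and 5.56 in KO 5, and from -0.25 to 1.31 in the other 8 livers. Its KO minus WT difference was 2.81 (SE 0.89, limma adjusted p = 0.0907), and it was 1 of the 6 genes that passed for the interaction (limma adjusted p = 0.0113). Its probe was well above background in 4 livers, and its reference channel on 1 array. The list means overlapped between genotypes for stellate, portal fibroblast, Kupffer, adipocyte and acinar markers, while the bile duct mean was -2.777 to -2.459 in WT and -2.457 to -2.202 in KO livers. These bile duct ranges nearly touch. That mean includes Spp1 (0.87, SE 0.25, limma adjusted p = 0.0608), the list's largest difference, and was not taken without it. The part of these cell types in the collagen values was not tested.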

How the data were processed

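The scanner files hold 2-colour Agilent arrays, extracted with Agilent Feature Extraction 10.7 per the submitters' processing notes. The deposited mean signals and local backgrounds are raw intensity values, per the file headers. A deposited log10 ratio of the 2 dyes, red over green, was computed by the scanner software per the file headers. Log2 liver-to-reference ratios make up the authors' series table, judged from its values (r of 0.9994 to 0.9996 with the ratios used here, column medians from 0.00777 to 0.02296). The sources used here do not say how that table was normalised. Per the labels' protocols, Qiagen-extracted RNA was labelled with Cy5 by Agilent's Quick Amp kit. Dyes were not swapped.

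Here, 169 to 291 spots per array with outlier flags were dropped before normexp (offset 50). The flags for uneven local background were added to these after a few such spots were seen to move the fit. Loess within arrays followed, and spots of a probe were averaged. Probes were kept where the scanner called Cy5 well above background in 4 or more of the 10 livers, and the brightest kept probe stood for its gene. Genes were named through RefSeq's table (GRCm38.p6), with 22951 probes matched by accession, 6659 by symbol and 3109 by synonym, while 8455 kept the files' name. Coordinates are the files' own (mm7), and slides were read from the file headers.

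limma 3.58.1 in R 4.3.3 fitted genotype and sex over all genes on the 10 livers, which the series describes as separate mice, with Benjamini-Hochberg adjustment and a threshold of 0.05. Rose, fell and passed refer to it. An interaction model gave the values within each sex. Standard errors and intervals are from the same fits, intervals without adjustment for the number of genes. Correlations used 100000 permutations, two-sided, with no covariate. The fit was run on simulated data with planted 2-fold changes and independent noise, without sex or slide effects. Those changes exceed the collagen genotype differences called here, so the run does not show how reliable such calls are. The number of arrays limits the precision.

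The collagens, gene lists and cell markers were chosen with earlier results of these data known. Named genes are the collagens that passed or did not overlap, the chains of collagens I, III, IV, V, VI, XIV and XVIII, and for other lists the genes that passed, or the 2 largest differences where none did. Col15a1, Cfd, the within-sex calls and the genes named for sex outside the collagens were chosen after their values were seen. Alternatives tried were the scanner's log ratio, median centring, Cy5 alone, a later flag removal, other filters, the authors' table, no sex term, slide and replicate blocks, a trended robust fit, the mean of a gene's probes, and leaving out livers.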

Additional observations from a re-analysis of the deposited data

Results flagged for a closer look

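In 8 of 80 groups of 5 livers checked (40 genes, each genotype), the most extreme liver stood further from the rest than Dixon's 95% limit allows. Chance alone flags about 1 in 20 groups. Among WT livers, WT 3 stood apart as high for Col13a1 (3.518, the nearest WT liver at 2.965) and as low for Col4a2 (-1.747, nearest -1.2), and WT 4 stood apart as low for Col4a6 (1.243, nearest 1.489). Among KO livers, KO 1 stood apart as high for Col3a1 (-2.868, nearest -3.399), KO 3 as high for Col16a1 (-3.773, nearest -4.028) and KO 2 as low for Col9a3 (-0.4029, nearest -0.2506). KO 4 was high for Col14a1 (5.11, nearest 5.008) and for the laminin chain Lama4 (2.175, nearest 1.741). The Col14a1 gap is small because the other 4 KO livers lie between 4.971 and 5.008.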

How the results depend on the processing

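Against 2 collagens called for genotype, none were called with median centring, with outlier spots removed after the background fit, with slide as a fixed block or with the replicate block (0 in each). There was 1 with Cy5 alone (Col27a1, in place of the others), with no filter, with no sex term and with a trended robust fit (Col18a1 in each), 3 without both male KO livers (Col18a1, Col27a1 and Col5a3, the last at 0.905, limma adjusted p = 0.00731), and 4 with slide as a random block. The setting without both male KO livers repeats the KO minus WT difference within females, where genotype and slide cannot be told apart. The mean of a gene's probes gave 2, with Col7a1 (0.229, limma adjusted p = 0.0493) in place of Col4a6. Leaving out 1 liver at a time gave 0 to 2. For sex, 5 collagens were called with the scanner's log ratio, 0 with the replicate block and 3 to 5 without 1 liver, against 3. The median KO minus WT difference of the collagens was 0.14 with median centring, against 0.0403, and that of all genes 0.0665, against -0.0027. All genes called were 281 with median centring (72.2% higher, against 48.4%), 339 with the later flag removal (58.7% higher), 625 with no sex term, 308 with the replicate block and 598 to 1190 without 1 liver (598 without WT 3, 601 without KO 1 and 670 without KO 4), against 1135. Matrix list genes called were 3 with median centring, the later flag removal or no sex term, 10 with slide as a fixed block, 12 as a random block and 2 with the replicate block, against 6. On slide 3 alone Pdgfa (0.149) and Smad7 (-0.199) turned. Without the 2 farthest livers the Col4a1 and Col4a2 relation had r = 0.491. Replicate numbers did not pair the livers (correlations of same-numbered livers -0.431 to 0.535, the lowest for a male and a female). No within-slide value has a test. Over 24 alternatives with a test, Col18a1 passed in 14 and Col4a6 in 5, while Col5a3 and Col27a1 passed for sex in 22 of 23 and Col7a1 in 18. The causes of these changes were not tested. The 10 dim collagens have no measured difference.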
